A study of Mus musculus with 22 samples.

Results

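Dcaf8l, Serpinb1c, Gm364, Gm45861, 4930550L24Rik, Gm16570, Trap1a, Vmn2r63 and Trim5 are 9 little-studied mouse genes, out of 34866 gene identifiers in the culture tables and 23911 in the main cartilage table. They were selected on the readout itself: their transcripts were at or near 0 counts in libraries with Dnmt1 and present in libraries in which Dnmt1 had been deleted. The difference between the genotypes is therefore given below as a description, without a test. All 9 were found by identifier in each table. The data go against the selection for Vmn2r63, which had counts in 1 cartilage table alone and 0 counts in all 14 culture libraries, so that it was not switched on in every setting.

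RNA was sequenced from 22 mouse samples in 6 groups. Control samples carried the genotype Dnmt1 flox (flox in the cartilage labels), and deleted samples, called cKO, carried Prrx1-Cre;Dnmt1 flox/flox (cKO in the cartilage labels). Day 0 cultures were untreated primary chondrocytes from knee articular cartilage (3 control, 3 cKO), and day 3 cultures had received BMP2 at 100 ng/µl for 3 days (4 control, 4 cKO). Both kinds of culture came from mice at postnatal day 3 to 5. The third setting was cartilage of P5 mice, digested with collagenase to remove connective tissue (4 flox, 4 cKO). Its replicates 1 and 2 were male and replicates 3 and 4 female in each genotype. Prrx1-Cre is active in limb mesenchyme and its descendants, which include cell types other than chondrocytes. No strain was named. The culture titles called their replicates biological, and the cartilage titles gave a replicate number alone. The labels did not say how many animals gave each sample or whether replicates came from separate litters. How far the spread between replicates is technical is therefore not known.

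Total counts were 41749546 to 51741669 per library at day 0, 14434320 to 18918905 at day 3 and 1100198 to 1888896 in cartilage. Dnmt1 itself was lower in every cKO library than in every control library of its setting, with log2 fold changes of −2.44, −1.41 and −1.66 at day 0, at day 3 and in cartilage (edgeR quasi-likelihood test, Benjamini-Hochberg adjusted p 1.62e-08, 0.00625 and 6.34e-05). The cartilage value is from the whole-number counts, with Dnmt1 means of 41.6 CPM in flox and 12.9 CPM in cKO libraries. In the estimated counts of the same libraries the difference was smaller, at 52.3 and 30.2 CPM. The day 3 cKO replicate 4 had the lowest Dnmt1 level of that group (10.9 CPM against 22.2 to 35.6 CPM in the others), and it stood apart as a whole. In a chi-square test of counts over genes, divided by its degrees of freedom, it scored 124 to 138 against the other 3 replicates, whereas those 3 scored 7.42 to 10.9 among themselves and the pairs of all other groups 3.53 to 30.2. Where a day 3 call printed below changed without this library, both results are given. Without it, Dnmt1 at day 3 had a log2 fold change of −1.17 (edgeR adjusted p 0.000252). All chondrocyte markers examined (8 of 8) had counts in all groups. Their summed level was lower in cKO libraries, at 53200 to 64430 CPM against 144300 to 152400 CPM at day 0, 1473 to 16710 CPM against 93390 to 113800 CPM at day 3 (1473 CPM in cKO replicate 4 and 11850 to 16710 CPM in the other cKO replicates), and 30970 to 58980 CPM against 65310 to 97930 CPM in cartilage. In cartilage the flox libraries formed 1 sequencing pool and the cKO libraries another, and pool and genotype cannot be told apart there. In bulk samples a lower level cannot be told apart from fewer cells of a type.

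DNMT1 is the maintenance DNA methyltransferase: after replication it copies methylation at CG dinucleotides (CpG sites) onto the new DNA strand. Promoter methylation keeps many genes of the germ line and placenta silent in other tissues, and loss of maintenance methylation can release them. The 9 genes belong to unrelated families. Trap1a encodes P1A, a tumour rejection antigen of the cancer-germline kind. 4930550L24Rik carries the RefSeq synonym mage-k1, which places it in the MAGE family of cancer-germline genes. Dcaf8l, also named Pet2, is a relative of Dcaf8, a substrate receptor of CUL4-DDB1 ubiquitin ligases. Serpinb1c belongs to clade B of the serpins, which are intracellular protease inhibitors. Trim5 is a tripartite motif gene whose primate counterpart restricts retroviruses. Vmn2r63 encodes a vomeronasal type 2 receptor, a pheromone receptor of the vomeronasal organ. Gm16570 is annotated as a processed pseudogene, and Gm364 and Gm45861 are annotated as protein-coding.

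On GRCm38 in the GENCODE M21 annotation, 4 of the 9 genes lay on the X chromosome: Dcaf8l (89403848 to 89409689, minus strand), Gm364 (57409154 to 57488767, plus strand), 4930550L24Rik (58909360 to 58920304, plus strand) and Trap1a (139333683 to 139338169, plus strand). The X chromosome held 3.92% of the genes tested at day 0, and 4.37% of the genes called higher in cKO cultures there. These shares are not of genes silent in controls, for which the members were selected. Nothing is therefore read from 4 of 9 beside them. Of the other members, Serpinb1c lay on chromosome 13 (32881434 to 32898211, minus strand), Gm45861 on chromosome 8 (27447100 to 27620917, plus strand) and Gm16570 on chromosome 12 (81589435 to 81589870, minus strand). Vmn2r63 (42896711 to 42933822, minus strand) and Trim5 (104263386 to 104288094, minus strand) lay on chromosome 7. Merged exon lengths ran from 436 bp in Gm16570 to 9153 bp in Vmn2r63.

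Promoter windows, from 250 bases before to 50 bases after a RefSeq start (RefSeq on GRCm38.p6), were given for 6 of the 9 genes, and not for Dcaf8l, Gm45861 and Gm16570. Of these, 4 windows are shown, as examples with more and with fewer CpG sites. DNA methylation was not measured in the data used here, and its part in the levels of these genes was not tested. Capitals mark CpG sites, and each sequence reads 5′ to 3′ on the strand of the gene. The first 3 are X-linked and lie on the plus strand, at chrX:57408899-57409198, chrX:139333433-139333732 and chrX:58911211-58911510, and the window of Trim5 lies on the minus strand at chr7:104288057-104288356.
Gm364: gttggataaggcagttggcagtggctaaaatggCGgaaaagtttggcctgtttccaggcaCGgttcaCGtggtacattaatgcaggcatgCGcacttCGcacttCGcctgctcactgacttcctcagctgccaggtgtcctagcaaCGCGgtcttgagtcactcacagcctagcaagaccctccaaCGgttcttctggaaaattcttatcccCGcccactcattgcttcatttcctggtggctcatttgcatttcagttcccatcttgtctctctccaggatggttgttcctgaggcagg
Trap1a: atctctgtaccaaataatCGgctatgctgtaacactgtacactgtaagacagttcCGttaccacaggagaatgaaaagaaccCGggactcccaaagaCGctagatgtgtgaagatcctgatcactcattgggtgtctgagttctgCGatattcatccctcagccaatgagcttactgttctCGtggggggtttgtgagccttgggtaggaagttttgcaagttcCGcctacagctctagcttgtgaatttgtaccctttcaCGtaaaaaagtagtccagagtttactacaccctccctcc
4930550L24Rik: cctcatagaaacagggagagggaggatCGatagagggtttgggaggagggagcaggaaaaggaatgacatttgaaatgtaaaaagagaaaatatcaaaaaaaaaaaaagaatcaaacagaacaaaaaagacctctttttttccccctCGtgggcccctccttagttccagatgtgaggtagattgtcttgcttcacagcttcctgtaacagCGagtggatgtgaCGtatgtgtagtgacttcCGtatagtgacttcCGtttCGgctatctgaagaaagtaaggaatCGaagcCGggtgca
Trim5: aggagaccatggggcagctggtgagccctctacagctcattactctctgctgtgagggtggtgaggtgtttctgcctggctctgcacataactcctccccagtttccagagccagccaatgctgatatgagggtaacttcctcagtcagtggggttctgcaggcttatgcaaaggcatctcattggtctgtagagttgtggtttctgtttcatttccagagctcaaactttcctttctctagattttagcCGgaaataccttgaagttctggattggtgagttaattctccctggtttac

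The windows of Gm364, 4930550L24Rik and Trap1a held 10, 9 and 8 CpG sites, with an observed-to-expected ratio of 0.49, 0.662 and 0.491. The window of Trim5 held 1, the Serpinb1c window at its GENCODE start held 2, and that of Vmn2r63 held 0. Across all 32851 promoter windows of the table, the median was 7 CpG sites (quartiles 3 and 20) and the median ratio 0.384. The 3 X-linked windows therefore lay just above the median of all promoters and far below the upper quartile, and the 3 autosomal windows below the lower quartile. The RefSeq start of 4930550L24Rik lies 2101 bp from its GENCODE start, and a second RefSeq start of Serpinb1c, with 0 CpG sites, lies 42389 bp from the GENCODE start. The windows were searched on both strands for TCCCGC (the core of the E2F6 site), CACGTG (the E-box) and TGACGTCA (the CRE). A single match was found, a CACGTG at 185 bases before the start of Gm364. In all promoter windows, 7.15% held CACGTG, 20.0% held TCCCGC and 1.79% held TGACGTCA.

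Levels are given as counts per library, as the deposited tables hold them, and as CPM, counts divided by library totals that were scaled with TMM factors. At day 0 all 8 detected genes were separated by genotype without overlap. Over all genes tested at day 0, every cKO library lay above every control library for 36.2%, and this share was 24.4% at day 3 and 7.01% in cartilage. The selection used this contrast, so nothing is read from the comparison of 8 of 9 or 9 of 9 with those shares.

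**Figure D1:**
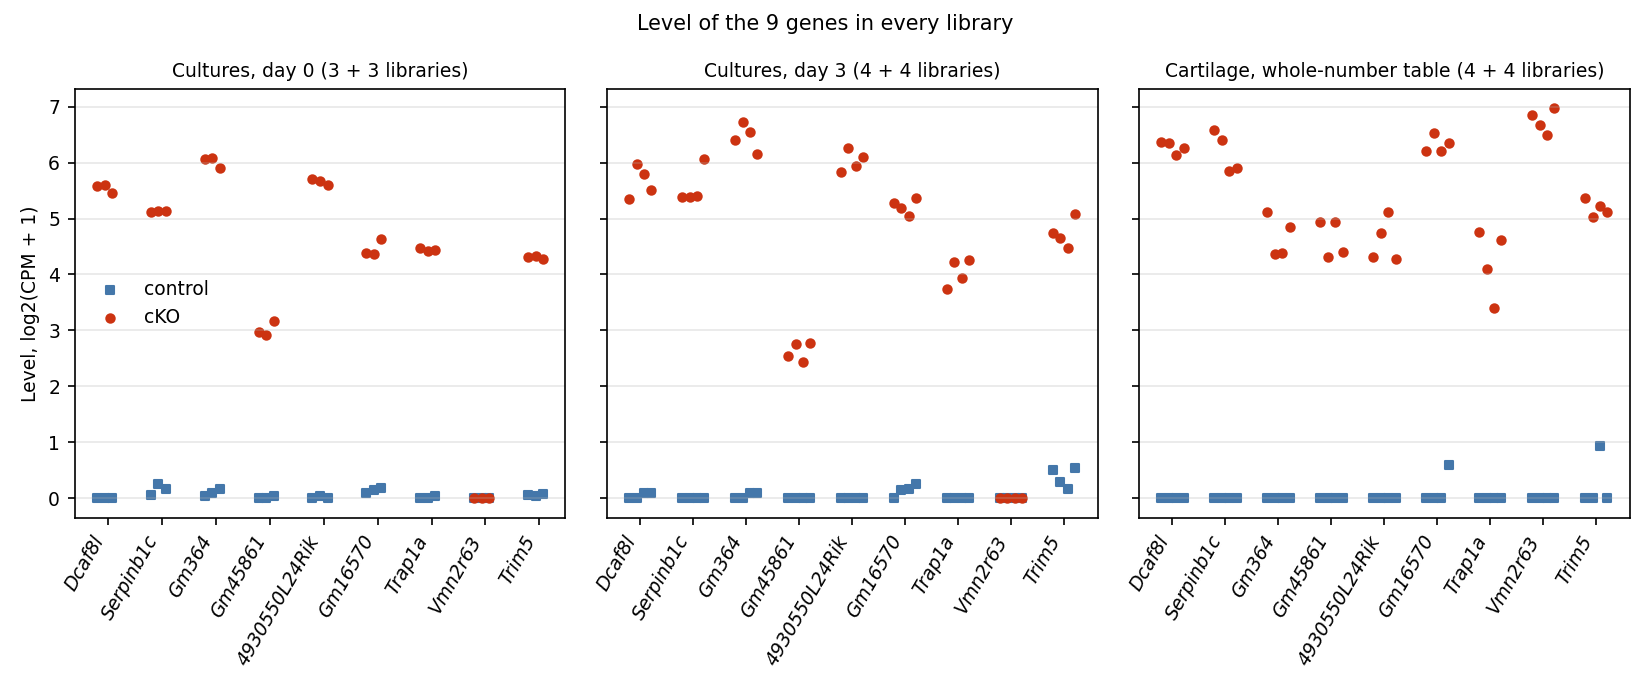
Level of each of the 9 genes as log2(CPM + 1) in every library (points; squares control, circles cKO) at day 0, at day 3 and in cartilage (whole-number table). Control points lie near 0 for every gene, and cKO points lie apart from them except for Vmn2r63, which is at 0 in all 14 culture libraries.

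Among the cancer-germline genes, Trap1a had 888, 886 and 1072 counts in day 0 cKO replicates 1 to 3 and 0, 0 and 1 in the controls. At day 3 it had 221, 359, 275 and 314 counts in cKO replicates 1 to 4 and 0 in each control, which made it at least 83.9-fold higher when each control library was set to 3 counts. In cartilage it had 32, 19, 11 and 28 counts in cKO replicates 1 to 4 and 0 in each flox library, at least 8.47-fold higher on the same footing. Trap1a was detected in all 11 cKO libraries, and it had the widest relative spread of the genes in cartilage, with a highest cKO library 2.75 times the lowest.

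4930550L24Rik had 2139, 2165 and 2454 counts in day 0 cKO cultures against 0, 1 and 0 in controls. After BMP2, at day 3, its cKO replicates had 991, 1531, 1155 and 1172 counts and all 4 controls 0, a difference of at least 347-fold. In cartilage the cKO replicates had 23, 30, 39 and 22 counts and the flox libraries 0, at least 10.9-fold. The groups did not overlap in any setting. Among other genes, the longest alignment to its transcripts was with Magea8 (66.3% identity over 552 bp), another X-linked MAGE gene, which had 0 counts in control and 136 in cKO cultures summed at day 0, and 0 and 215 at day 3. In cartilage Magea8 had only 0 counts summed over flox and 1 over cKO libraries (0 and 2 in the estimated counts).

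Dcaf8l had 1945, 2078 and 2205 counts in the day 0 cKO replicates and 0 in all 3 controls, at least 692-fold higher. In the day 3 cultures its cKO replicates had 710, 1256, 1049 and 778 counts and the controls 0, 0, 1 and 1. In cartilage the cKO replicates had 99, 95, 80 and 90 counts and the flox libraries 0, at least 34.5-fold higher. The 4 cKO cartilage libraries differed little, with a mean of 76.8 ± 5.54 CPM (SD, n = 4).

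Gm364 had 2753, 2902 and 3033 counts in day 0 cKO cultures and 1, 3 and 5 in controls, a ratio of 963 (95% exact counting interval 507 to 2106). At day 3 the cKO replicates had 1488, 2134, 1775 and 1220 counts against 0, 0, 1 and 1 in controls. In cartilage the cKO counts were 41, 23, 23 and 33 and the flox counts 0. Every cKO library was far above every control library in all 3 settings.

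Serpinb1c had 1412, 1484 and 1756 counts in day 0 cKO cultures and 2, 9 and 5 in controls, a ratio of 290.0 (95% exact counting interval 178 to 508). Scaled to depth, the 3 cKO cultures were nearly equal, at 33.9, 34.1 and 34.0 CPM. Its cKO replicates at day 3 had 730, 824, 793 and 1139 counts and each control 0. In cartilage the male cKO replicates had 116 and 98 counts, the female replicates 65 and 70, and the flox libraries 0.

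Trim5 had more counts in the day 3 controls than any other member, 19 in all. At day 0 it had 782, 834 and 950 counts in cKO cultures against 2, 1 and 2 in controls. At day 3 the cKO replicates had 458, 490, 405 and 571 counts and the controls 6, 4, 2 and 7, a ratio of 88.0 (95% exact counting interval 56.2 to 147). In cartilage the cKO replicates had 49, 37, 42 and 40 counts and the flox replicates 0, 0, 1 and 0. Trim12c, a neighbouring gene of the same family, aligned to Trim5 with 94.3% identity over 3710 bp and Trim12a with 97.0% over 952 bp, so reads from them could be split differently by different counting tools.

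Gm16570 had 823, 856 and 1232 counts in day 0 cKO cultures and 3, 5 and 6 in controls, a ratio of 207 (95% exact counting interval 123 to 380). At day 3 it had 674, 718, 614 and 696 counts in cKO replicates and 0, 2, 2 and 3 in controls. In cartilage the cKO replicates had 89, 107, 84 and 96 counts and the flox replicates 0, 0, 0 and 1. The gene lies within an intron of Med6 on the same strand and overlaps Gm16572 on the opposite strand. Its sequence was 84.7% identical over 439 bp to the ribosomal protein gene Rps23, which was abundant in both genotypes (24771 counts summed over cKO and 29812 over control cultures at day 0), and no stretch of at least 75 bp reached 95% identity with it.

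Gm45861, the least abundant of the 8 genes per exon length in cultures, had 285, 284 and 411 counts in day 0 cKO replicates against 0, 0 and 1 in controls. Its day 3 cKO replicates had 86, 116, 84 and 101 counts and the controls 0, at least 27.8-fold. In cartilage the cKO replicates had 36, 22, 34 and 24 counts and the flox libraries 0, at least 10.99-fold. It overlaps Poteg in exons on the same strand, with a shared stretch of 1484 bp at 100% identity. Poteg was given 1 count in the controls and 0 in the cKO cultures at day 0, so nearly all reads of this locus were assigned to Gm45861 in the deposited tables.

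Vmn2r63 behaved differently from the rest. The whole-number table of cartilage gave it 140, 119, 103 and 148 counts in cKO replicates 1 to 4 and 0 in each flox library, a difference of at least 48.3-fold. The table of estimated counts for the same 8 cartilage libraries gave it 0 in every library, as did the day 0 and day 3 tables. A count of 0 allows up to 3 counts, equal to 0.0582 to 0.0720 CPM at day 0 and 0.148 to 0.206 CPM at day 3, in counting error alone. The identifier of Vmn2r63 carried version 1 in the day 0 table of estimated counts and version 2 in GENCODE M21. The other 8 genes had the same version in both. Versions in the other tables were not examined. In GENCODE M21, 20 other genes shared a stretch of at least 75 bp and 95% identity with a Vmn2r63 transcript, against 0 to 5 for each other member. These included Vmn2r62, with 96.8% identity over 2798 bp, which had 0 counts in all cultures, and genes of unrelated families such as Ube2e1, with 95.8% over 120 bp. Whether the gene model or shared sequence bears on the difference between the tables was not tested.

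**Figure D2:**
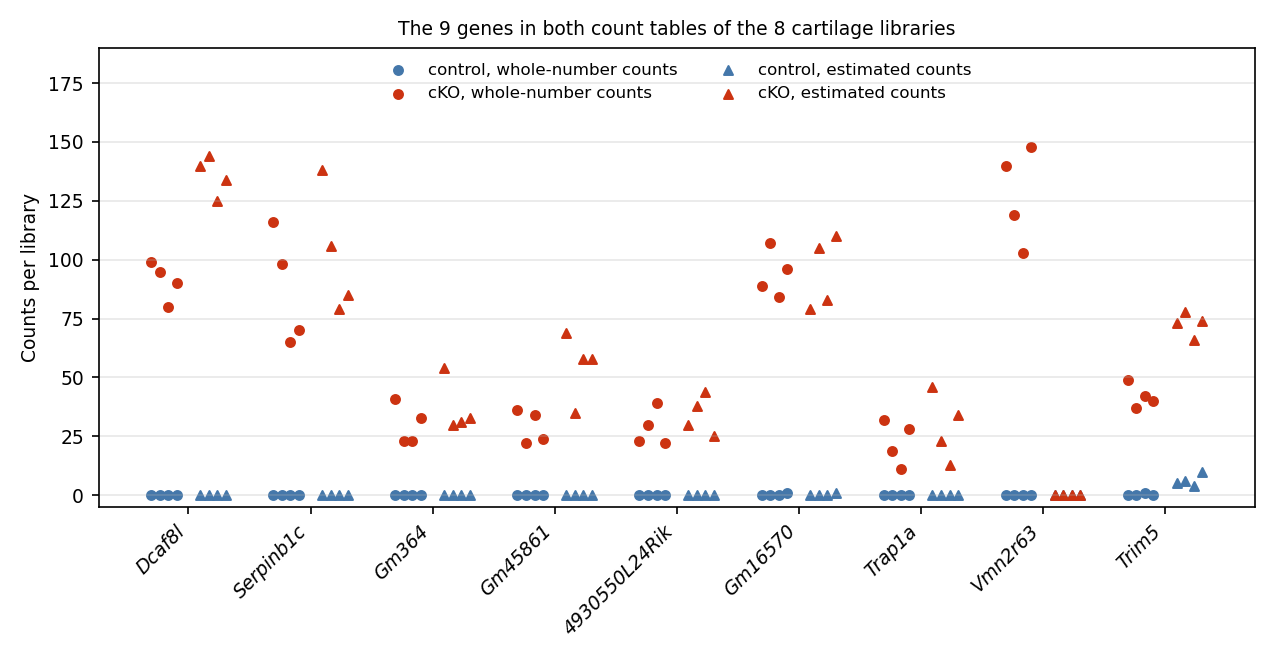
Counts per library of the 9 genes in both count tables of the same 8 cartilage libraries (y axis, counts; circles whole-number, triangles estimated; blue control, red cKO). Vmn2r63 has 103 to 148 whole-number counts and 0 estimated counts in cKO libraries, and the control libraries of Trim5 lie above 0 in the estimated counts.

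The other 8 genes were present in cKO and near 0 in flox libraries in both cartilage tables. Summed over the cKO libraries, Gm16570 had 377 estimated and 376 whole-number counts, while the estimated sums of the other 7 genes were 1.17 (Serpinb1c) to 1.90 (Gm45861) times the whole-number sums. Total counts per library differed 1.37 to 1.73 times. For Trim5 the difference between the genotypes was much smaller in the estimated counts. Its flox replicates had estimated counts of 4.82, 6.41, 4.50 and 10.5 and its cKO replicates 73.4, 77.6, 66.5 and 74.0. The ratio was 14.1 (95% exact counting interval 9.38 to 22.2), against 201 (35.6 to 7983) in the whole-number table.

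Compared per exon length, the order of the 8 genes in cKO cultures was the same at day 0 and day 3. At day 0 Gm16570 was highest at 48.4 CPM per kb (range 45.1 to 54.8 over 3 libraries). Gm364 and 4930550L24Rik followed at 29.6 and 29.4 CPM per kb, with overlapping ranges of 27.3 to 30.9 and 28.3 to 30.5. Serpinb1c had 20.8, Trap1a 17.7, Dcaf8l 10.9, Trim5 5.09 and Gm45861 0.945 CPM per kb, and the ranges of these neighbours did not overlap. The median of 15480 genes tested at day 0 was 3.65 CPM per kb. Thus 7 of the 8 genes had a level above the median, and Gm16570, Gm364 and 4930550L24Rik had a level above that of 90.8 to 94.9% of them. Gm45861 lay above 28.1%. At day 3 the ranges of Gm364, 4930550L24Rik and Serpinb1c overlapped (32.6 to 48.8, 33.1 to 44.9 and 24.9 to 40.2 CPM per kb), and so did those of Trap1a and Dcaf8l (10.6 to 15.4 and 9.54 to 14.8 CPM per kb). Cartilage libraries were primed at the 3′ end, and levels of different genes were not compared there.

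**Figure D3:**
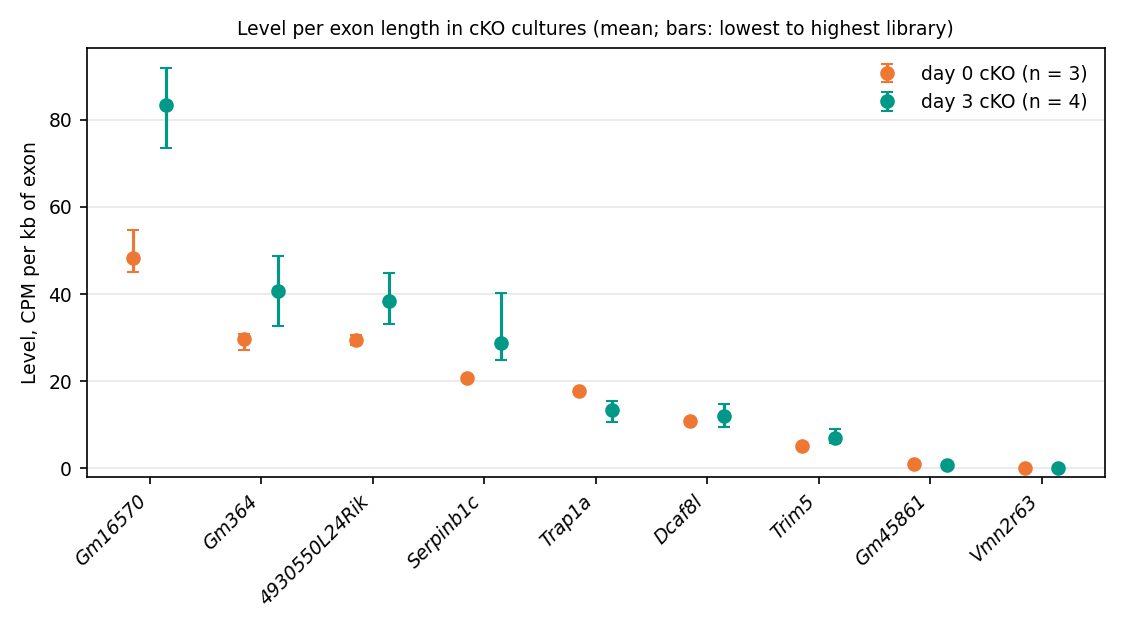
Level of each gene in CPM per kb of merged exon in cKO cultures at day 0 (3 libraries) and day 3 (4 libraries); points are means and bars run from the lowest to the highest library. The order of the 8 detected genes is the same on both days, from Gm16570 to Gm45861.

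Replicates within the cKO groups varied by gene. At day 0 the coefficient of variation of CPM lay between 0.254% for Serpinb1c and 11.5% for Gm16570. The value of Serpinb1c is below the spread that counting error alone gives at its 1412 to 1756 counts per library. With 3 libraries it is therefore not read as a property of the gene. At day 3 it lay between 9.53% for Gm16570 and 26.1% for Serpinb1c. The day 3 replicates did not share 1 order: Dcaf8l (62.0 CPM), Gm364 (105 CPM) and 4930550L24Rik (75.5 CPM) were highest in replicate 2, whereas Serpinb1c (65.6 CPM), Gm16570 (40.1 CPM), Trim5 (32.9 CPM), Trap1a (18.1 CPM) and Gm45861 (5.82 CPM) were highest in replicate 4, the library with the least Dnmt1. Thus 3 of the 8 genes peaked in replicate 2 and 5 in replicate 4. Without replicate 4, all 8 genes still had every cKO library above every control library at day 3.

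The selection did not use the change from day 0 to day 3 within cKO cultures, and this was tested in a fit of all 14 cultures. Of the 8 genes tested, 4 were called higher at day 3 and 0 lower, beside 32.4% of 14909 genes called higher and 29.8% called lower. Gm16570 rose from 21.1 ± 2.42 CPM (SD, n = 3) to 36.4 ± 3.46 CPM (SD, n = 4), which is 0.78 on the log2 scale (SE 0.154, edgeR adjusted p 0.000675). This call held under all 12 alternatives, with log2 fold changes of 0.73 to 0.88. Gm364 rose from 63.8 ± 4.37 to 87.9 ± 14.8 CPM (0.46, SE 0.148, edgeR adjusted p 0.0153), 4930550L24Rik from 49.5 ± 1.90 to 64.7 ± 8.69 CPM (0.39, SE 0.121, edgeR adjusted p 0.0180) and Trim5 from 18.8 ± 0.362 to 26.0 ± 4.99 CPM (0.47, SE 0.171, edgeR adjusted p 0.0293). Each cKO library at day 3 was above each cKO library at day 0 for these 4 genes. Day, BMP2, depth and count table differ together here and cannot be told apart.

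For the other 3 genes the call, though not the direction, was lost when certain single libraries were left out. Gm364 was not called without day 0 cKO replicate 3 or day 3 cKO replicate 2 (0.40 and 0.34, edgeR adjusted p 0.0708 and 0.0530). 4930550L24Rik was not called without day 0 cKO replicates 2 or 3 or day 3 cKO replicate 2 (0.38, 0.35 and 0.28, edgeR adjusted p 0.0590, 0.0698 and 0.0667). Trim5 was not called without any 1 of the 3 day 0 cKO replicates or day 3 cKO replicate 1, at log2 fold changes of 0.45 to 0.48 (edgeR adjusted p 0.0640 to 0.0867).

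The other 4 genes did not pass the threshold. Trap1a had 20.8 ± 0.494 CPM at day 0 and 15.6 ± 2.73 CPM at day 3 (−0.41, SE 0.169, edgeR adjusted p 0.0561), and Gm45861 had 7.11 ± 0.761 and 5.19 ± 0.698 CPM (−0.46, SE 0.210, edgeR adjusted p 0.0846). Both were lower in every day 3 library than in every day 0 library, and both were called lower without day 3 cKO replicate 4 (edgeR adjusted p 0.00968 and 0.0273). Trap1a was also called lower without day 3 cKO replicate 2 (edgeR adjusted p 0.0472). Serpinb1c had 34.0 ± 0.0865 and 47.2 ± 12.3 CPM (0.47, SE 0.196, edgeR adjusted p 0.0591), and without day 3 cKO replicate 4 it was called higher, at a log2 fold change of 0.27 (edgeR adjusted p 0.0387). Dcaf8l had 45.7 ± 2.62 and 50.4 ± 9.89 CPM (0.14, SE 0.153, edgeR adjusted p 0.449), with overlapping libraries. DESeq2 called 7 of the 8 genes, all but Dcaf8l, with Trap1a and Gm45861 lower (adjusted p 0.0203 and 0.0215) and Serpinb1c higher (adjusted p 0.0355).

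**Figure D4:**
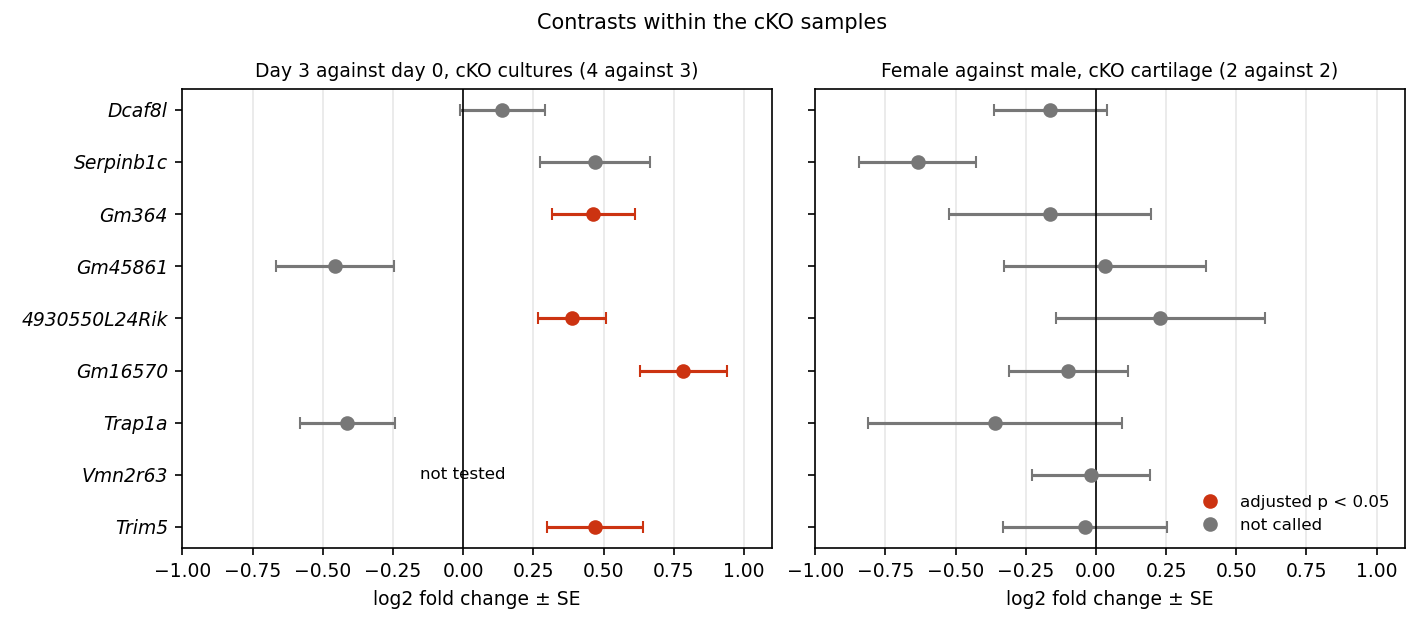
Log2 fold change with its SE for each of the 9 genes within cKO samples: day 3 against day 0 in cultures (left, 4 against 3 libraries) and female against male in cartilage (right, 2 against 2 libraries). Gm16570, Gm364, 4930550L24Rik and Trim5 are called higher at day 3 (red), and no gene is called between the sexes.

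The sexes could be compared within cKO cartilage, with 2 libraries each. Of the 9 genes tested, 0 were called by edgeR and 1 (Serpinb1c) had an unadjusted p under 0.05, beside 0.0103% of 9687 genes called higher and 0.0310% called lower in females. DESeq2 gave no adjusted p for any of the 9. Serpinb1c had 56.5 and 58.8 CPM in females and 95.1 and 83.6 CPM in males (log2 fold change −0.64, SE 0.207, edgeR adjusted p 0.467). Vmn2r63 was at 89.5 and 124 CPM in females and 115 and 101 CPM in males. The X-linked genes were present in both sexes: Dcaf8l had 69.5 and 75.6 CPM in females and 81.2 and 81.0 CPM in males, and Trap1a had 9.56 and 23.5 CPM in females and 26.2 and 16.2 CPM in males (−0.36, SE 0.452, edgeR adjusted p 0.929). With 2 libraries of each sex, differences below those detectable by the fit cannot be told from 0.

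Neighbouring genes were examined from a list of the 5 nearest on each side of each member, with overlapping genes counted among them (90 in all). At day 0, 21 of 90 could be tested, of which 15 were called higher and 2 lower, beside 33.0% of all genes called higher and 31.6% called lower. Of those tested, 6 of 7 at Serpinb1c and 4 of 4 at Trim5 were called higher, mostly genes of the same families. A gene near 0 in controls could be tested only if it had enough counts in cKO libraries. Such neighbours, Serpinb1-ps1 and Gm11382 among them, entered these counts and medians already higher. At day 3, 19 were tested, with 11 called higher and 1 lower, beside 25.5% and 22.6% of all genes (11 higher and 3 lower without cKO replicate 4). Their median log2 fold change was 1.04 at day 0 and 1.36 at day 3 (0.78 without cKO replicate 4), against 0.01 for all genes tested on either day. In cartilage 0 of 6 were called by edgeR (2 at an unadjusted p under 0.05, 0 by DESeq2), beside 3.15% of all genes called higher and 3.04% called lower. Without any single flox replicate 2 were called there, and 1 without cKO replicate 1 or 3.

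**Figure D5:**
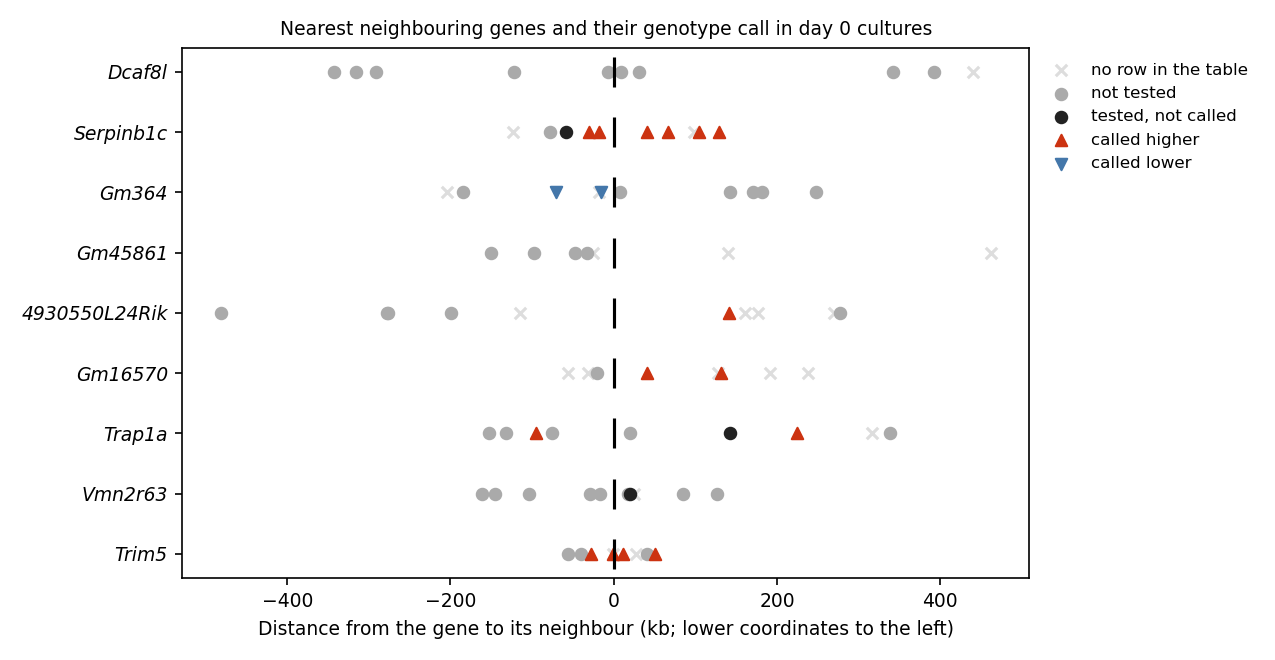
Distance in kb from each of the 9 genes (black bars) to its nearest non-overlapping neighbours, with the neighbour's genotype call in day 0 cultures (triangles up, called higher in cKO; triangles down, lower; black, tested and not called; grey, not tested or without a row). Called neighbours are most numerous around Serpinb1c and Trim5, and all 9 listed neighbours of Dcaf8l were untested.

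The neighbours differed between the members. All 9 neighbours of Dcaf8l with a row had at most 5 counts summed over the day 0 cKO libraries, and so had 8 of 9 at Vmn2r63, 6 of 8 at Gm364 and 5 of 6 at 4930550L24Rik. At the other members these were 3 of 4 at Gm45861, 4 of 8 at Trap1a, 2 of 7 at Trim5, 1 of 8 at Serpinb1c and 0 of 3 at Gm16570. Genes overlapping a member were left out of these numbers. Of all 34866 gene identifiers, 45.1% had at most 5 counts over those libraries. Beside Gm364, Rbmx and Arhgef6 were called lower at day 0 (−0.32 and −0.29, edgeR adjusted p 0.000102 and 0.0115). Fgf13, a growth factor homologue 141841 bp from 4930550L24Rik, rose at day 0 (0.79, edgeR adjusted p 1.91e-06). At day 3 it was not called with all libraries and was called higher without cKO replicate 4 (0.47, edgeR adjusted p 0.0376). Near Trap1a, Pwwp3b and Rnf128 rose at day 0 (0.40 and 0.31, edgeR adjusted p 0.00233 and 0.0160) and were not called at day 3 with all libraries. Without cKO replicate 4, Pwwp3b was called lower at day 3 (−0.57, edgeR adjusted p 0.00506), opposite to day 0. Rnf128 was not called there (0.34, edgeR adjusted p 0.0983). Near Gm16570, Ttc9 and Map3k9 rose at day 0 (1.04 and 2.27) and at day 3 (1.73 and 3.75), and Med6, in which Gm16570 lies, rose at day 3 (0.38, edgeR adjusted p 0.00686) and had a log2 fold change of −0.07 at day 0 (edgeR adjusted p 0.318).

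Around Serpinb1c, 6 of 7 neighbours tested rose at day 0. Serpinb1-ps1, an unprocessed pseudogene 18264 bp away on the same strand, had 0 counts in controls and 56 summed over the day 0 cKO libraries. Gm11382, another unprocessed pseudogene on that strand, had 1 count in controls and 311 in cKO libraries at day 0, and 0 and 178 at day 3. Gm11382 lies at 32938513 to 32938691 on chromosome 13, inside the Serpinb1c gene as RefSeq gives it (32881218 to 32940628), so its reads and those of a longer Serpinb1c transcript cannot be told apart. Serpinb1-ps1 shared a stretch of 118 bp at 98.3% identity with Serpinb1c.

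Relatives of the members were read beside the shares of all genes called, 33.0% higher and 31.6% lower at day 0, 25.5% and 22.6% at day 3, and 3.15% and 3.04% in cartilage. Serpinb1a, Serpinb1-ps1, Serpinb6b, Serpinb9, Serpinb9b, Trim6, Trim12a, Trim12c and Trim34a were counted among the neighbours as well, so the lists are not separate. Relatives near 0 in controls, such as Serpinb1-ps1 and Vmn2r-ps11, could be tested only through their cKO counts. Of 27 other Serpinb genes, 8 were tested in cultures at each time, and 7 were called higher and 0 lower at day 0 and again at day 3 (median log2 fold change 1.46 and 2.14). At day 3 the count was 4 without control replicate 4, and 6 without cKO replicate 4, where the median was 1.21. DESeq2 called 5 of the 8 at day 3. Serpinb1a, the closest protein-coding paralogue of Serpinb1c at 87.6% identity over 1392 bp, had counts in controls and rose at day 0, with means of 1.96 ± 0.254 CPM in control and 4.15 ± 0.127 CPM in cKO libraries (SD, n = 3 each; 1.07, SE 0.128, edgeR adjusted p 7.07e-05). Serpinb1a also shared a stretch of 105 bp at 95.2% identity with Serpinb1c. Whether reads of Serpinb1c were counted for Serpinb1a was not tested. Serpinb1b was not tested, with 23 counts in control and 14 in cKO cultures at day 0. Besides Serpinb1-ps1, the largest changes were those of Serpinb9b and Serpinb6b at day 0 (2.42 and 2.35), and Serpinb2, Serpinb9b and Serpinb6b at day 3 (7.54, 3.74 and 2.76). Most day 3 cKO counts of Serpinb2 (2626 of 2834) and Serpinb9b (450 of 504) came from replicate 4. Without that library the log2 fold changes were 3.98 for Serpinb2 (edgeR adjusted p 0.00126), 1.90 for Serpinb6b (edgeR adjusted p 0.000412) and 0.78 for Serpinb9b, which was no longer called (edgeR adjusted p 0.157) and whose groups overlapped. In cartilage Serpinb6a alone was tested and it was not called (−0.22, edgeR adjusted p 0.501).

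Of 14 Dcaf genes, all were tested in cultures, and all had counts in control libraries. At day 0, 4 were called higher and 6 lower (median log2 fold change −0.06), and at day 3, 1 higher and 4 lower (median −0.16), or 2 higher and 5 lower without cKO replicate 4. At day 0 these counts come to 4 and 6 of 14, beside 33.0% and 31.6% of all genes. The number called at day 3 was 3 without control replicates 2, 3 or 4 or cKO replicate 2. Dcaf8, 74.8% identical to Dcaf8l over 1255 bp, was lower in cKO cultures at day 0, with means of 110 ± 1.67 CPM in control and 80.2 ± 2.72 CPM in cKO libraries (SD, n = 3 each; −0.46, SE 0.0340, edgeR adjusted p 3.27e-06), and at day 3 it fell by 0.23 on the log2 scale (edgeR adjusted p 0.0462), a call lost without cKO replicate 4 (−0.20, edgeR adjusted p 0.0548). Dcaf12l1 and Dcaf10 had the largest absolute changes at day 0 (−0.57 and −0.51). In cartilage 0 of 13 were called by edgeR (2 at an unadjusted p under 0.05, 0 by DESeq2), and Dcaf8 had a log2 fold change of −0.00 (edgeR adjusted p 0.993).

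In the cluster around Trim5, 11 relatives were listed. At day 0, 6 were tested, with 5 called higher and 1 (Trim68) lower, and at day 3, 8 were tested, with 6 called higher and 1 (Trim68) lower, both with and without cKO replicate 4. Trim12c rose at day 0, with 3.05 ± 0.0406 CPM in control and 8.35 ± 0.744 CPM in cKO libraries (SD, n = 3 each; 1.45, SE 0.0988, edgeR adjusted p 2.16e-06) and at day 3, with 16.7 ± 1.83 and 47.3 ± 6.15 CPM (SD, n = 4 each; 1.52, SE 0.115, edgeR adjusted p 3.17e-05). Trim12a rose by 1.93 and 1.51 on the log2 scale, Trim34a by 2.204 and 1.74, and Trim21 by 1.94 and 1.54, on the respective days. Trim30a had 5 counts summed over the day 3 controls and 1568 over the cKO libraries. Trim12c, Trim12a, Trim34a and Trim21 had 57 to 416 counts summed over the day 0 controls. In cartilage Trim68 alone was tested and it was not called (−0.25, edgeR adjusted p 0.675).

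Of 235 other Vmn2r genes and pseudogenes, 3 could be tested at day 0 and 1 at day 3. Vmn2r-ps11, a pseudogene of the family, had 0 counts in all 7 control cultures, 409 summed over the day 0 cKO libraries and 638 over those at day 3, a pattern that Vmn2r63 did not show in cultures. Vmn2r-ps54 had 5 counts in controls and 35 in cKO libraries at day 0. When a day 0 control replicate or cKO replicate 3 was left out, 4 relatives were called in place of 2, and at day 3, without any single control or cKO replicate 3, 2 in place of 1. Markers of vomeronasal sensory neurons (4 genes) summed to 282 to 292 CPM in control and 298 to 322 CPM in cKO cultures at day 0, to 312 to 335 and 310 to 357 CPM at day 3, and to 523 to 635 and 413 to 531 CPM in cartilage. Most of each day 0 sum was Gnai2, a G protein subunit of wide expression. At day 0, 3 of 3 markers tested were called higher: Omp (3.95, edgeR adjusted p 0.000899), Gnao1 (0.73, edgeR adjusted p 0.00168) and Gnai2 (0.10, edgeR adjusted p 0.0311). The channel gene Trpc2, which defines these neurons, had 0 counts at day 0, had 6 and 4 counts in day 3 control replicates 1 and 2, 1 in cKO replicate 4 and 0 in the other 5 libraries, and was not analysed in cartilage, where its identifier had no row in the table used.

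A list of 20 interferon-stimulated genes was read beside Trim5, since several TRIM genes respond to interferon. At day 0, 17 were tested, with 14 called higher and 1 (Ifi44) lower, at day 3, 18 of 18 higher (20 of 20 without cKO replicate 4), and in cartilage 14 of 15 higher, beside the shares of all genes given above. Their median log2 fold change was 2.13, 3.21 (3.58 without cKO replicate 4) and 4.11 in that order. Examples with the largest changes were Oas1a (3.30) and Isg15 (2.83) at day 0, Oasl2 (6.69) and Oas1a (6.46) at day 3, and Ifit1 (5.83) and Ifi44 (5.03) in cartilage. Each of the 15 interferon genes tested in cartilage had counts in flox libraries. The members were selected for silence in controls, so nothing is read from a comparison with their flox counts. Whether interferon signalling bears on the level of Trim5 was not tested.

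Markers of other cell types moved with genotype as well. Summed skeletal muscle markers (6 genes) lay at 27.8 to 38.7 CPM in cKO and 1.69 to 2.11 CPM in control cultures at day 0, at 95.4 to 1220 and 0.395 to 1.14 CPM at day 3 (95.4 CPM in cKO replicate 4, at least 727 CPM in the other cKO replicates), and at 10.1 to 32.4 and 5.00 to 7.34 CPM in cartilage. Only 3 of these 6 genes could be tested at day 0 and 1 in cartilage, against all 6 at day 3. Myl1 had 0 counts in the day 0 cKO cultures. In cartilage Myog had 0 counts in cKO libraries and Myod1 had no row. Summed germ cell markers (6 genes, among them Dazl) lay at 35.6 to 44.5 and 0.854 to 1.05 CPM at day 0, 22.6 to 44.1 and 0.543 to 1.23 CPM at day 3 (22.6 to 29.3 CPM in cKO libraries without replicate 4), and 62.6 to 89.6 and 0 to 0.834 CPM in cartilage. Dazl made up most of these sums, with 31.9 to 41.1 CPM in day 0 cKO cultures. Ddx4 was also called higher at day 0 (2.78, edgeR adjusted p 1.5e-06), Acrv1 was not called (0.34, edgeR adjusted p 0.442), and Tnp1, a gene of maturing sperm, had 0 counts in all cKO cultures. Tnp1 and Acrv1 had no row in the cartilage table used. Trophoblast markers (4 genes) lay at 0.737 to 0.987 and 0.284 to 0.613 CPM at day 0, 0.247 to 16.5 and 0 to 0.240 CPM at day 3 (0.247 to 1.01 CPM in cKO libraries without replicate 4), and 0 to 0.840 and 0 to 1.01 CPM in cartilage, where 1 of the 4 had a row. Tpbpa had 0 counts in every culture library. Summed leukocyte markers (6 genes) were at 9.04 to 10.8 CPM in cKO and 6.80 to 7.30 CPM in control cultures at day 0, at 8.32 to 16.9 and 2.52 to 3.91 CPM at day 3 (8.32 to 9.62 CPM in cKO libraries without replicate 4), and at 23.0 to 37.5 and 30.1 to 64.9 CPM in cartilage. Endothelial markers (3 genes) were at 1.67 to 1.997 and 0.993 to 1.20 CPM at day 0, at 1.25 to 1.41 and 0.240 to 0.923 CPM at day 3, and at 32.0 to 75.9 and 52.9 to 98.0 CPM in cartilage. Osteoclast markers (3 genes) were at 75.6 to 90.0 and 165 to 169 CPM at day 0, at 96.1 to 354 and 110 to 138 CPM at day 3 (96.1 to 114 CPM in cKO libraries without replicate 4), and at 56.6 to 115 and 120 to 437 CPM in cartilage. At day 0 this sum was mostly Ctsk, which was called lower (−1.01, edgeR adjusted p 8.35e-07), whereas Mmp9 was called higher (1.15, edgeR adjusted p 0.0260) and Acp5 was not called (0.08, edgeR adjusted p 0.712). In cartilage all 3 were called lower. Mast cell and neutrophil markers (4 genes) did not exceed 4.52 CPM in any library. The part of these cell types in the levels of the 9 genes was not tested.

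The genes whose levels most resembled the members' were Dazl, Kcnh1, Tex13b, Mnd1 and Tex19.1. Likeness was Pearson's r, across 22 libraries, between a gene's log2(CPM + 1) and the mean of log2(CPM + 1) over the 9 members, among 8357 genes tested in all 3 settings, and these 5 had r of 0.995, 0.990, 0.987, 0.984 and 0.981. The libraries share their genotype groups and depth, so r describes the on-off pattern and has no p. Vmn2r63 is part of this mean, though it had 0 counts in all cultures and in the estimated cartilage counts. It therefore raises the mean in cKO cartilage alone, and the order of these genes without it was not examined. Dazl, an RNA-binding protein of germ cells, was at 31.9 to 41.1 CPM in day 0 cKO cultures and 0.0634 to 0.131 CPM in controls. Tex19.1, a germ cell and placental gene, was at 52.4 to 58.1 CPM in day 0 cKO and 0.0218 to 0.0462 CPM in control cultures, and at 36.5 to 46.9 and 0 CPM in cartilage. Mnd1, which acts in meiotic recombination, was at 40.4 to 41.7 CPM in day 0 cKO cultures but kept 1.11 to 1.15 CPM in controls. Kcnh1, a potassium channel gene, was at 32.7 to 65.2 CPM in cKO and 0 to 0.734 CPM in flox cartilage.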

How the data were processed

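RNA of 14 chondrocyte cultures and 8 cartilage samples was sequenced. For the cultures the authors deposited estimated counts per gene, not all whole numbers, from libraries of a directional kit, per the labels' protocols. The tools behind them are not given in the sources used here. For cartilage, sequenced as barcoded 3′ libraries, the authors deposited whole-number counts (used here) and a table of estimated counts (an alternative). The submitters' processing notes name the build GRCm38 for all samples and, for cartilage, UMI-tools 1.1.1, Trim Galore 0.6.7, HISAT2 2.2.1, featureCounts 2.0.1 and DESeq2 1.34.0, with no order. Whether UMIs were collapsed is not given. Of the columns with values per sample, 0 were left out.

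Symbols came from the whole-number cartilage table by identifier, and otherwise from the reference table of gene names (34582 of 34866 culture identifiers named). The 9 members, the gene and marker lists and the tests were chosen with earlier results of these data known, and no value here is independent support for the choice. Estimated counts were rounded to whole numbers and tested with edgeR 4.0.16 in R 4.3.3 (quasi-likelihood test, TMM scaling, filterByExpr with 10 counts and 15 in total, Benjamini-Hochberg adjustment over all genes tested, threshold 0.05), with sex as a covariate for cartilage genotype. Each SE came from the log2 fold change and the F statistic (size over the root of F). CPM of cultures share 1 TMM scale over 14 libraries, and those of cartilage 1 over 8. A fold against controls at 0 in every library is a lower bound against 3 counts per control library. With any control count it is the ratio of pooled CPM with a 95% exact (Clopper-Pearson) interval. This replaced a planned lower bound for controls at 1 to 3 counts. Intervals and floors cover counting error only. Named genes were the members, Dnmt1, neighbours called higher, the nearest relatives and up to 3 others per family, and the 5 genes most like the members' mean. Fgf13, Rbmx, Arhgef6 and Med6 are named as neighbours, and Magea8, Rps23, Poteg, Vmn2r62 and Ube2e1 for transcript similarity (BLAST+ 2.17.0, GENCODE M21); apart from Fgf13 and Med6 these were chosen after their values were seen. The fits were tested on simulated counts. Replicates differed beyond counting noise in every pair (chi-square per degree of freedom 3.53 to 30.2, and 124 to 138 for pairs with day 3 cKO replicate 4).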

Additional observations from a re-analysis of the deposited data

Results flagged for a closer look

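Serpinb1c stood apart in 1 library of the day 3 cKO cultures. Replicate 4 had 65.6 CPM, and replicates 1 to 3 had 41.0, 40.7 and 41.4 CPM. The gap from the highest library to the next made up 0.972 of the range of the group, above Dixon's 95% critical value for 4 samples. Of the 18 combinations of a gene and a group of 4 that were examined, this was the 1 that passed, and chance flags about 1 in 20. The same library had the lowest Dnmt1 of its group (10.9 CPM) and the highest level of Gm16570 (40.1 CPM), Trim5 (32.9 CPM), Trap1a (18.1 CPM) and Gm45861 (5.82 CPM), so that 5 of 8 genes were highest in it, but not of Gm364, for which it was the lowest (70.3 CPM). Whether these are connected was not tested.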

How the results depend on the processing

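The number of members separated by genotype was 8 at day 0, 8 at day 3 and 9 in cartilage, and it was the same with library totals in place of TMM and without any single replicate. With the estimated counts of cartilage it was 8. Cartilage depth limits what can be tested there: 8793 genes passed the filter, and few relatives or neighbours of the members did. Calls over all genes moved as follows. The genotype effect in cartilage called 544 genes, 357 with DESeq2, 1044 without the expression filter, and 362 (without cKO replicate 4) to 630 when single replicates were left out. The contrast of the sexes in cKO cartilage called 4 genes, 7 with DESeq2, 129 without the expression filter, 11 when fitted on the groups compared alone, and 3 to 32 when single replicates were left out, with 32 without cKO replicate 1 and 14 without cKO replicate 4. The log2 fold change of Trap1a between the sexes ran from −1.16 to 0.14 without single replicates, with 0.03 without cKO replicate 1 and 0.14 without cKO replicate 3, so it has no settled direction. The causes of these moves were not tested.

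A shared replicate number did not pair the samples: the correlation of deviations was over 0.1 in 2 of 14 same-numbered pairs (range −0.337 to 0.14). With the replicate number as a block, 9724 genes were called at day 0, 5391 at day 3, 576 in cartilage and 9011 between days in cKO cultures. Under the block, Trim5 was no longer called between days (0.32, edgeR adjusted p 0.0551) and Trap1a was called lower (−0.50, edgeR adjusted p 0.0391). At day 3 the block left 4 Serpinb and 3 Dcaf relatives called. Fitted on the groups compared alone, Trap1a and Gm45861 were called lower at day 3 (edgeR adjusted p 0.0354 and 0.0306). Without the filter, 7 Vmn2r relatives were called at day 0 and 7 at day 3. In cartilage, where 0 neighbours and 0 Trim5 relatives were called, 4 and 4 were called without the filter and 2 and 2 with the estimated counts.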
